A study of Rattus norvegicus with 9 samples.

Results

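Interferon response genes were followed in cultured rat pinealocytes after knockdown of Lhx4 or Bsx. The group holds 41 genes chosen by their known place in the interferon response, and all 41 were found among the 26854 genes of both deposited tables. Pinealocytes make the melatonin of the pineal gland, and Lhx4 and Bsx encode homeodomain transcription factors. Primary cultures from adult Sprague-Dawley rats were transfected with 40 nM of control siRNA without a target (siNT), of siRNA to Lhx4 (siLhx4) or of siRNA to Bsx (siBsx). All 3 groups therefore received double-stranded RNA with the same lipid reagent (Lipofectamine RNAiMAX). The medium was renewed after 24 h and cells were collected on day 3, with 3 libraries per group and 9 in all. One siRNA was used per target, and the labels do not say whether replicates came from separate cultures or animals, so p-values measure the spread between these libraries, which may be technical.

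Interferons are secreted proteins that cells release when sensors in the cytoplasm or endosome meet foreign nucleic acid, double-stranded RNA included. Type I interferon binds a receptor whose kinases activate STAT2, which joins IRF9 in a complex that binds the interferon-stimulated response element in promoters. The genes switched on in this way include the same sensors and factors, so the pathway feeds itself, together with antiviral effectors, ubiquitin-like modifiers and the machinery of antigen presentation.

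Values per library of these 41 genes were not analysed here. The authors' deposited tables give a mean normalized count (reads divided by a size factor per library), a log2 fold change over siNT and an adjusted p per gene, and a standard error (SE) in the siBsx table. Group levels below are the means that these values imply, in normalized counts that are not divided by transcript length. Lhx4 had 18963, 18331 and 19156 normalized counts in the siNT libraries and 3420, 3634 and 3551 in the siLhx4 libraries, a level of 18.8% of siNT. Bsx fell with siBsx by 2.27 ± 0.062 (log2, SE) in the authors' deposited table. Bsx also fell with siLhx4, by 0.86 (log2; DESeq2 adjusted p = 3.23e-44 from the authors' deposited table). The siLhx4 cells were therefore lower in both targets. Lhx4 rose with siBsx by 0.14 ± 0.049 (log2, SE; adjusted p = 0.0225 from the authors' deposited table). In the siNT and siLhx4 libraries, 14 genes with values per library held between 342743 and 724771 reads. All 10 pinealocyte markers were present, with a summed level of 554804 in siNT, while 10 lymphocyte markers summed to 94.8.

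An adjusted p was listed for 36 of the 41 genes in both of the authors' deposited tables, as for 14876 genes in all. The other 5 were Ifit1, Ifi47 and Zbp1, whose means were low, and Mx2 and Usp18, for which no p was given. Ifit1, an RNA-binding effector, stood at 17.9 normalized counts in siNT, 10.3 in siLhx4 and 3.95 in siBsx. The GTPase Ifi47 stood at 10.0 in siNT, 13.9 in siLhx4 and 6.37 in siBsx. Zbp1, a sensor of Z-form nucleic acid, stood at 9.53, 7.23 and 9.23 in the same order. These 3 low genes lie outside every count of calls below.

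Promoters of the group were searched for the response element. Its core, GAAA followed by any 2 bases and GAAA again, was searched on both strands in the 250 bases before and 50 bases after each gene's start in RefSeq promoters of the rat build GRCr8, where 31 of the 41 genes had an entry. A match was found in 18 of the 31 promoters, or 58.1%, and in 1312 of all 33469 promoters, or 3.92%. Only the letters were matched, which shows neither binding nor a cause of any change. Of the 8 genes with a call against siNT and a promoter entry, 5 had a match (Dtx3l, Ifit3, Psmb8, Rsad2 and Tap1), while Irf1, Irf8 and Oasl had none in this window. The sequences below are examples among the genes with a match, the first 6 with wide spread between libraries and the last 3 with a call against siNT. Each runs 5′ to 3′ on the gene's own strand with the matched letters in capitals, so that TTTC at the left end marks a match on the opposite strand.
Irf7 (chr1:205800068-205800107, minus strand): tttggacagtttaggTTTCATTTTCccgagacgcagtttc
Oas1a (chr12:41330410-41330455, plus strand): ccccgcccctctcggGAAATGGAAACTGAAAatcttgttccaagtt
Oasl2 (chr12:47383312-47383351, minus strand): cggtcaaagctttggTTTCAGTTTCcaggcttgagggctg
Ifi27 (chr6:128355213-128355252, plus strand): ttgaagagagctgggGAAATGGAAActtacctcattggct
Parp14 (chr11:78408043-78408082, plus strand): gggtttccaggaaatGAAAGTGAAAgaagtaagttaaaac
Bst2 (chr16:18255068-18255113, minus strand): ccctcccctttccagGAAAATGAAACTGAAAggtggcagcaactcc
Tap1 (chr20:4668640-4668679, minus strand): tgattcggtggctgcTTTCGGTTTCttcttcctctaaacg
Rsad2 (chr6:48788243-48788282, minus strand): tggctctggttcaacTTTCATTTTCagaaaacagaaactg
Ifit3 (chr1:241527267-241527306, plus strand): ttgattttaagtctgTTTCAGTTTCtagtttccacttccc

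The matched cores of these promoters lay upstream of the start. The match nearest the left end of each printed sequence began 41 bases upstream in Oas1a, 44 in Ifit3, 69 in Irf7, 76 in Parp14 and 84 in Ifi27. It was 121 bases upstream in Tap1, 131 in Bst2, 147 in Rsad2 and 151 in Oasl2. Oas1a and Bst2 each held 2 overlapping matches, and Ifi27 and Ifi44 each held 2 separate ones. The other Ifi27 match, not printed, began 169 bases upstream. The starts of Tap1 and Psmb9 lie on opposite strands 457 bases apart, and those of Parp9 and Dtx3l lie 1214 bases apart.

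With siLhx4, 6 of the 36 tested genes rose and none fell at a DESeq2 adjusted p of 0.05 in the authors' deposited table. Among all genes tested, 8.07% were called higher and 9.59% lower, or 17.7% in either direction. In either direction, 6 of 36 was near that share. The 6 were the regulators Irf1 and Irf2, the ubiquitin ligase Dtx3l, the effector Oasl and the antigen-processing genes Psmb8 and Tap1. Their changes were 1.19- to 1.71-fold, and at an unadjusted p of 0.05 the count was also 6 higher and 0 lower. At that limit 4156 of the 14876 genes tested were counted in either direction, a larger share than 6 of 36. Of the 36 genes, 30 had a log2 fold change above 0, or 83.3%, against 50.6% of all genes tested, and the median was 0.47 against 0.003. Weighting each gene by 1 over its squared SE lowered that centre to 0.19.

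Among the transcription factors of the group, 2 of 8 rose with siLhx4, beside 8.07% of all genes tested. Irf1, an activator induced by interferon gamma, stood at 698 normalized counts in siNT, 1118 in siLhx4 and 850 in siBsx. Its change with siLhx4 was 0.68 ± 0.092 (log2, SE), with a DESeq2 adjusted p of 7.25e-12 in the authors' deposited table. Irf1 had the smallest adjusted p of the group in this comparison. Irf2, a relative of Irf1 that can repress the same sites, stood at 1307 in siNT and 1560 in siLhx4 and rose by 0.26 ± 0.090 (adjusted p = 0.0298 from the authors' deposited table). Irf3, which carries the signal from the sensors, stood at 1437 in siNT and 1407 in siLhx4, and Irf5 at 189 and 193. Stat2 and Irf9, partners in the interferon-activated complex, stood at 1846 and 665 in siNT and at 1987 and 896 in siLhx4. Irf7, the amplifier of type I interferon genes, stood at 901 and 1281. None of Irf3, Irf5, Stat2, Irf9 and Irf7 passed the test, and the SE was 0.077 for Irf3 but 0.38 for Irf7 and 0.40 for Irf9.

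None of the 5 tested sensors passed with siLhx4, and the count at an unadjusted DESeq2 p of 0.05 was also 0. Ifih1 (MDA5), a sensor of long double-stranded RNA, stood at 1796 in siNT and 2014 in siLhx4, and its change was 0.17 ± 0.096 (log2, SE). Eif2ak2 (PKR), a kinase that double-stranded RNA activates, stood at 2197 and 2106 with a change of -0.06 ± 0.11. The endosomal receptor Tlr3 stood at 111 and 103. The narrow errors of Ifih1 and Eif2ak2 put their 95% intervals at 0.985- to 1.28-fold and 0.830- to 1.11-fold. Ddx58 (RIG-I), a sensor of RNA ends, and its regulator Dhx58 had higher values with far wider errors. Ddx58 stood at 430 in siNT and 670 in siLhx4 with a change of 0.64 ± 0.46, and Dhx58 at 136 and 241 with a change of 0.83 ± 0.64.

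Of the 14 tested effectors, only Oasl rose with siLhx4, a share near the 8.07% of all genes tested. A value above 0 was found in 12 of 14. Oasl, which encodes an OAS-like protein, stood at 3055 normalized counts in siNT and 3849 in siLhx4. It rose by 0.33 ± 0.082 (log2, SE; DESeq2 adjusted p = 0.000625 from the authors' deposited table). Its relative Oasl2 stood at 1344 and 2184, a larger change of 0.70 ± 0.43 that did not pass. The synthetase genes Oas1a and Oas2, whose enzymes make a messenger from ATP when they meet double-stranded RNA, stood at 199 and 22.6 in siNT and at 308 and 44.8 in siLhx4. Their changes were 0.63 ± 0.70 and 0.98 ± 0.63, so that the 95% interval of Oas1a ran from 0.598- to 4.001-fold. Mx1, an antiviral GTPase, stood at 18.6 and 40.6 with a change of 1.13 ± 0.64. Bst2, the tether that holds budding virus, stood at 63.9 and 103 with a change of 0.69 ± 0.76, the largest SE of the 36.

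The other effectors also failed the test with siLhx4, in both directions. Ifit2, a relative of Ifit1, stood at 28.4 normalized counts in siNT and 39.9 in siLhx4, a change of 0.49 ± 0.53 (log2, SE). Ifit3 stood at 252 and 188, and Rsad2 (viperin), which makes a chain-terminating nucleotide, at 691 and 594. These were the only 2 tested effectors with a value below 0. The exonuclease Isg20, Ifi35, Ifi44, Gbp2 and the mitochondrial protein gene Ifi27 had log2 changes between 0.16 and 0.55.

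Among the modifiers and the antigen-processing genes, 3 of 9 tested genes rose with siLhx4, beside 8.07% of all genes tested. Dtx3l, a ubiquitin ligase that pairs with Parp9, stood at 497 normalized counts in siNT and 725 in siLhx4. It rose by 0.54 ± 0.18 (log2, SE; DESeq2 adjusted p = 0.0201 from the authors' deposited table). Parp9 itself stood at 371 and 565 with a larger value and a wider error, 0.61 ± 0.33. Isg15, the ubiquitin-like modifier, stood at 101 and 166 with a change of 0.73 ± 0.39, and Parp14 at 480 and 673 with 0.49 ± 0.40. Psmb8, a subunit of the immunoproteasome, stood at 98.6 and 169 and rose by 0.77 ± 0.25 (adjusted p = 0.0150 from the authors' deposited table). Tap1, which carries peptides into the endoplasmic reticulum, stood at 322 and 528 and rose by 0.71 ± 0.18 (adjusted p = 0.000999 from the authors' deposited table). Psmb9, the immunoproteasome subunit beside Tap1, stood at 57.1 and 71.3 and did not pass. B2m, the light chain of class I molecules, stood at 7288 and 7747 with a narrow error, 0.09 ± 0.070. The chemokine Cxcl10 stood at 124 and 113.

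**Figure D1:**
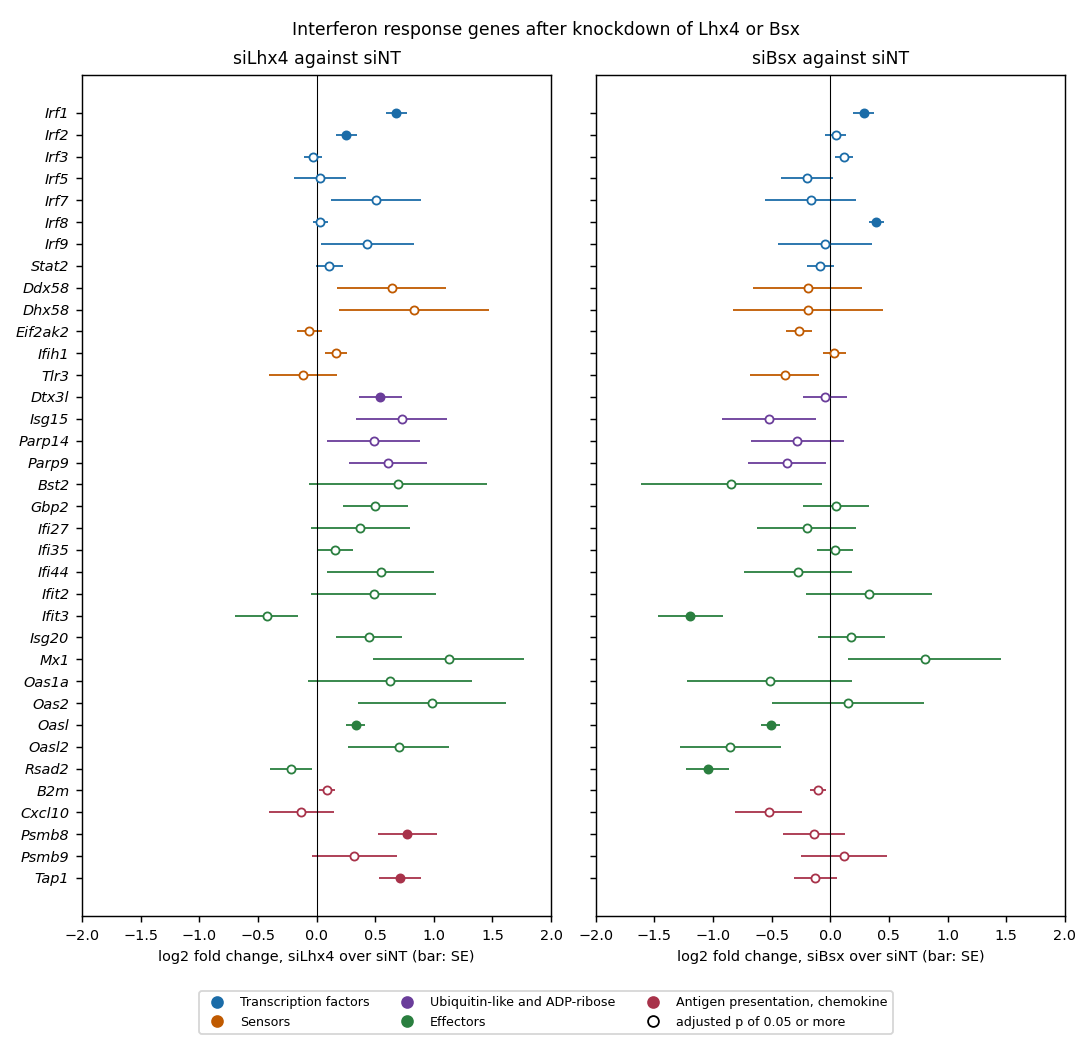
Log2 fold changes over siNT of the 36 genes with an adjusted p, siLhx4 at left and siBsx at right, with bars for the SE and open circles where the adjusted p was 0.05 or more. With siLhx4 most points lie right of 0 with wide bars, and the 6 filled points include narrow ones (Irf1 and Oasl). With siBsx, Oasl, Rsad2 and Ifit3 are the filled points left of 0.

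With siBsx, 2 of the 36 genes rose and 3 fell at a DESeq2 adjusted p of 0.05 in the authors' deposited table. Over all genes tested, 7.59% were called higher and 9.61% lower, so both counts were near the background. The median log2 fold change was -0.15 against 0.000 for all genes tested, and 12 of 36 values, or 33.3%, lay above 0 against 50.1%. Weighting each gene by 1 over its squared SE gave a mean of -0.03. Both genes that rose encode factors, and all 3 that fell are effectors.

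Irf8, a factor best known from myeloid cells, stood at 4059 normalized counts in siNT, 4148 in siLhx4 and 5325 in siBsx. It rose with siBsx by 0.39 ± 0.062 (log2, SE; DESeq2 adjusted p = 1.01e-08 from the authors' deposited table), and its siLhx4 value was 0.03 ± 0.062. Irf1 rose with siBsx by 0.28 ± 0.094 (adjusted p = 0.0185 from the authors' deposited table). Rsad2 stood at 691 in siNT and 334 in siBsx and fell by 1.05 ± 0.18 (adjusted p = 3.04e-07 from the authors' deposited table). Ifit3 stood at 252 and 110 and fell by 1.19 ± 0.28 (adjusted p = 0.000216 from the authors' deposited table). Oasl stood at 3055 and 2145 and fell by 0.51 ± 0.083 (adjusted p = 2.71e-08 from the authors' deposited table). Oasl thus passed in both comparisons with opposite directions.

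The remaining 31 genes did not pass with siBsx. Eif2ak2 stood at 1823 normalized counts in siBsx, a change of -0.27 ± 0.11 (log2, SE) with a DESeq2 adjusted p of 0.0651 in the authors' deposited table. Oasl2 stood at 743, a change of -0.85 ± 0.43 that did not pass (adjusted p = 0.179 from the authors' deposited table). Stat2 stood at 1736 (-0.09 ± 0.12), Ifih1 at 1836 (0.03 ± 0.097) and B2m at 6777 (-0.10 ± 0.070). The genes with the widest errors were Bst2 at 35.5 (-0.84 ± 0.77), Oas1a at 139 (-0.52 ± 0.70), Mx1 at 32.4 (0.80 ± 0.65), Oas2 at 24.96 (0.15 ± 0.65), Dhx58 at 119 (-0.19 ± 0.64) and Ifit2 at 36.0 (0.33 ± 0.54).

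**Figure D2:**
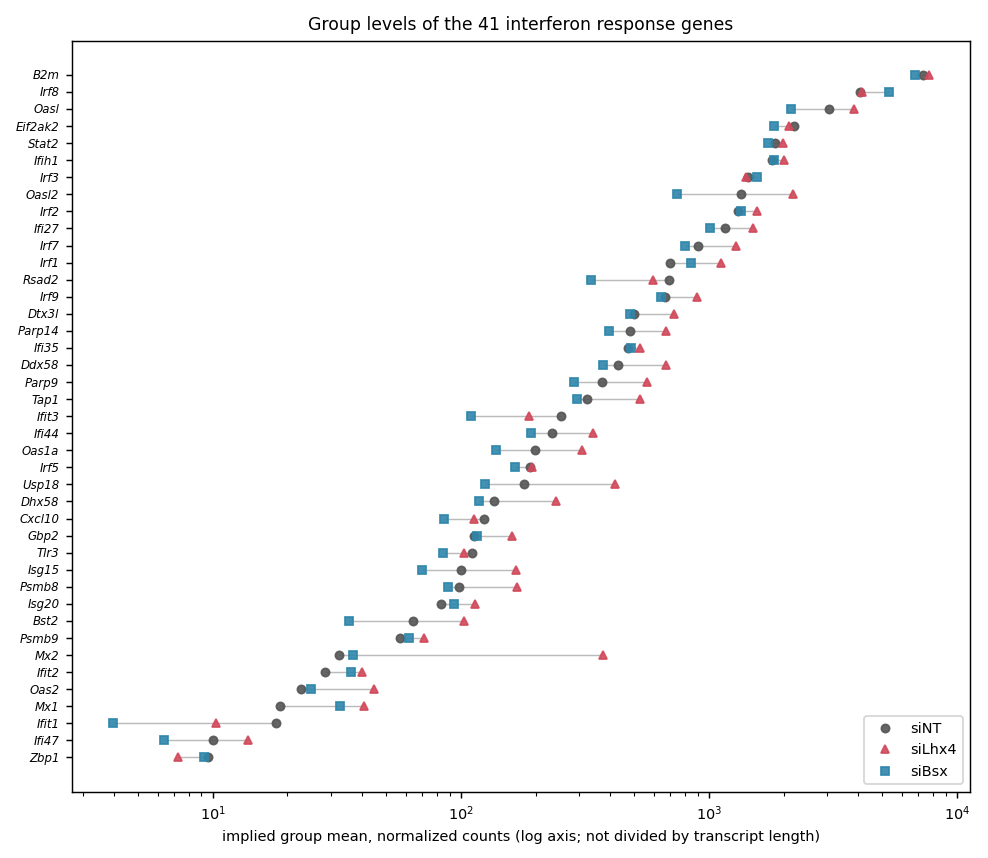
Implied group means of the 41 genes in normalized counts on a log axis, with circles for siNT, triangles for siLhx4 and squares for siBsx. Mx2 stands apart, at 373 in siLhx4 and below 50 in the other groups, while B2m lies between 6777 and 7747 in all 3.

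The 2 knockdowns were then set against each other. Since both tables share the siNT libraries, the siLhx4 and siBsx levels were tested directly, with a Wald test computed from the deposited values and adjusted over all genes tested. At an adjusted p of 0.05, 11 of the 36 genes were higher in siLhx4 than in siBsx, and 1 was lower. Among all genes tested, 11.8% were higher in siLhx4 and 10.8% lower. The median difference was 0.53 on the log2 scale against -0.002 for all genes, and 34 of 36 differences, or 94.4%, lay above 0 against 49.7%.

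Oasl had the smallest p of these differences, with 3849 normalized counts in siLhx4 and 2145 in siBsx, 0.84 ± 0.083 apart (log2, SE; adjusted p = 2.36e-22, rebuilt Wald test). Oasl2 was 1.55 ± 0.43 higher (adjusted p = 0.00244) and Isg15 1.25 ± 0.40 higher (adjusted p = 0.0102) in siLhx4 than in siBsx. Rsad2 was 0.83 ± 0.18 higher (adjusted p = 8.22e-05) and Ifit3 0.77 ± 0.28 higher (adjusted p = 0.0280). Rsad2 and Ifit3 stood below siNT in both knockdowns, and lower in siBsx. Tap1 was 0.84 ± 0.18 higher (adjusted p = 5.50e-05), Psmb8 0.91 ± 0.26 (adjusted p = 0.00292), and B2m 0.19 ± 0.070 (adjusted p = 0.0288). Parp9 was 0.98 ± 0.33 higher (adjusted p = 0.0192), Dtx3l 0.59 ± 0.18 (adjusted p = 0.00874) and Irf1 0.40 ± 0.092 (adjusted p = 0.000183). Irf8 was the single gene lower in siLhx4, by -0.36 ± 0.062 (adjusted p = 1.46e-07). Isg15, Oasl2, Parp9 and B2m passed in this comparison without passing against siNT in either knockdown.

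**Figure D3:**
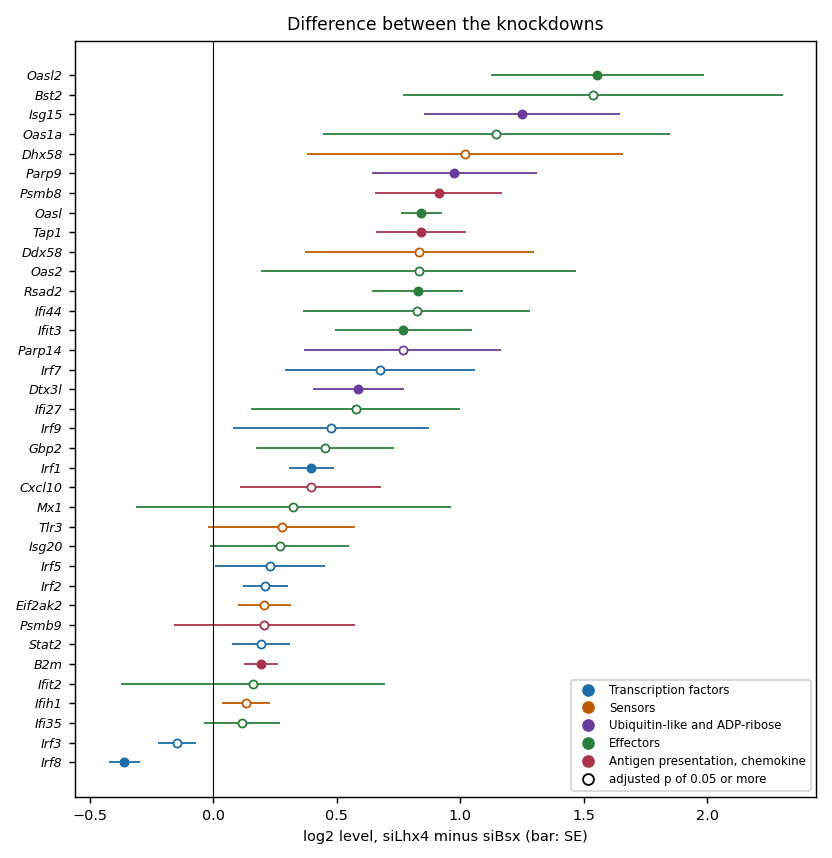
Difference in log2 level between siLhx4 and siBsx for the 36 genes, with bars for the SE and open circles where the adjusted p was 0.05 or more. Points right of 0 are higher in siLhx4, and Irf8 is the filled point left of 0.

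All of these calls take the Wald statistic as normal. With a t distribution of 6 degrees of freedom and readjustment over all genes, the siLhx4 calls dropped from 6 to 1 (Irf1, adjusted p = 0.0184), and the siBsx calls to Irf8, Oasl and Rsad2. In the comparison of the knockdowns Oasl, Rsad2, Tap1 and Irf8 then passed.

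The standard errors of this group were wide. The median SE of the 36 genes was 0.28 in each comparison, against 0.12 over all genes tested, and the widest was 0.76 with siLhx4. The contrast was also seen at higher counts: among the 29 tested members whose mean was 100 normalized counts or more, 11 had an SE of at least 0.3 with siLhx4, against 1.20% of such genes at large. The SE set what could be called. The smallest change with siLhx4 that would have passed was 1.12-fold for Irf8 and 1.13-fold for B2m, but 2.01-fold for Irf7, 2.18-fold for Oasl2, 2.31-fold for Ddx58 and 3.56-fold for Oas1a. A gene of the latter kind that did not pass is therefore not shown to be unchanged.

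The SE was turned into the coefficient of variation (CV) between libraries that it implies. Each gene was set beside genes whose mean lay within 1.25-fold of its own. This CV is that of the dispersion in the authors' fitted model. It was not measured from counts per library, also where it equals that of genes of like mean. A CV of at least 2 times the median of those genes was found in 13 of 38 members with a comparison, or 34.2%, and in 142 of 14879 genes, or 0.954%. That limit was chosen after the values were seen, and the shares are a description without a test. The 13 were the factors Irf7 and Irf9, the sensors Ddx58 and Dhx58, the modifiers Usp18, Parp9 and Parp14, and the effectors Mx2, Oas1a, Oasl2, Ifi27, Ifi44 and Bst2. Bst2, just inside the limit, had 2.43 times the CV of its like, and Isg15, just outside, had 1.56 times. The deposited tables share one dispersion per gene, so the SE does not tell which group or library varied.

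Oasl2 and Ifi27 were well measured in counts and still widely spread. Oasl2 had an implied CV of 36.4% where genes of like mean had 6.71%, and Ifi27, at 1159 normalized counts in siNT, 1502 in siLhx4 and 1007 in siBsx, had 35.8%, or 5.06 times that of its like. Irf7 had a CV of 32.5%, Irf9 of 33.5% and Ddx58 of 39.1%. By contrast, Irf1 had 0.89, Psmb8 0.98 and Irf8 1.06 times the CV of genes of like mean. All 9 members called in either knockdown against siNT were among the 25 with the smaller CV. That split is not an independent result, since the CV comes from the same SE by which the test divides. Among the genes with the larger CV, Mx2 and Usp18 also had no p.

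The 13 widely spread genes shared an order of group levels. The siLhx4 level was the highest in 13 of 13, and siNT lay above siBsx in 12, the exception being Mx2. Of the 142 genes with such a CV, these 13 included, 38, or 26.8%, had the order siLhx4, siNT, siBsx. Among all 36 tested members siLhx4 was highest in 80.6%, against 34.6% of all genes tested. The full order was seen in 52.8% and 19.7%. It was not particular to this group. Among tested markers of other cell types, it was seen in 88.9% for fibroblasts, 62.5% for astrocytes and 42.9% for endothelium. For pinealocytes and for microglia and macrophages it was seen in 0%. The siLhx4 level was highest in 100%, 62.5%, 85.7%, 10% and 28.6% of these markers, in the same order of cell types. A single library can raise both a CV and a group level, so the order is not independent of how the 13 were picked. They were also read in the same 9 libraries and are not separate observations. Ifi44 stood at 340 in siLhx4, 233 in siNT and 192 in siBsx, and Parp14 at 673, 480 and 395. Of the 13, the 11 with an adjusted p had a median log2 change of 0.61 with siLhx4 and -0.28 with siBsx. None of them passed against siNT, in a test that divides by the same SE that gave their CV. The response element core was matched in 7 of the 9 that had a promoter entry, such as those of Irf7, Oasl2, Ifi27, Parp14 and Bst2 printed above, and in 11 of 21 members with the smaller CV.

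**Figure D4:**
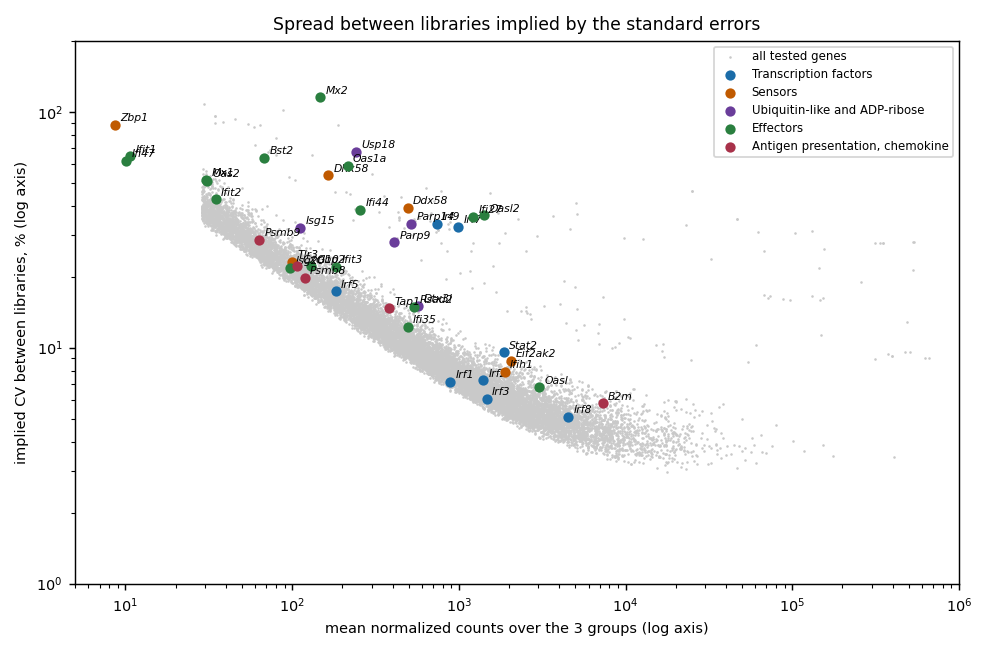
Implied CV between libraries in percent against mean normalized counts over the 3 groups, both on log axes, with grey points for all tested genes and coloured points for the interferon response genes by role. The cloud narrows to the right, and Oasl2 (36.4%) and Ifi27 (35.8%) lie far above it, while Irf1 and Irf8 lie within it.

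Mx2 and Usp18 had the highest log2 changes of the group with siLhx4, 3.53 and 1.22 in the authors' deposited table, and no p. Mx2, an antiviral GTPase, stood at 32.3 normalized counts in siNT, 373 in siLhx4 and 36.8 in siBsx, and its implied CV was 115%. Usp18, which removes Isg15 from proteins and damps the receptor, stood at 179, 418 and 125, with a CV of 67.8%. Only 3 of the 26854 genes had no p in either of the authors' deposited tables, and the third was Oas1k, another synthetase gene, at 151, 357 and 141. DESeq2 by default leaves p empty for a gene whose count in 1 library it marks as an outlier, or whose counts are all 0. Whether that setting was used is not given in the sources used here. How the reads of these 3 genes were divided among the siLhx4 libraries was not analysed here.

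Upstream of the group, the 7 interferon genes in the tables had levels between 0.143 and 32.5 normalized counts in any group, and none had an adjusted p. Their summed level was 37.7 in siNT, 46.1 in siLhx4 and 34.2 in siBsx, most of it Ifnk. Of 11 receptor and signalling genes, 1 rose and 2 fell with siLhx4, and 1 rose and 1 fell with siBsx. Counts this small are near the shares called among all genes tested, 8.07% higher and 9.59% lower with siLhx4 and 7.59% and 9.61% with siBsx. Socs3, a feedback inhibitor, rose with siLhx4 by 0.52 (log2; DESeq2 adjusted p = 0.0417 from the authors' deposited table). Ifngr2, a chain of the interferon gamma receptor, fell by 0.42 (adjusted p = 0.0290 from the authors' deposited table). Stat3 fell by 0.25 with siLhx4 and by 0.22 with siBsx, and the feedback inhibitor Socs1 rose by 0.91 with siBsx (adjusted p = 0.00033 from the authors' deposited table).

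Nucleic acid sensing outside the group was followed in 7 tested genes, of which Myd88 and Nfkbia rose in both knockdowns in the authors' deposited tables, and none fell. Over all genes tested, 8.07% rose with siLhx4 and 7.59% with siBsx. Myd88, the adaptor of Toll-like receptors, rose by 0.37 with siLhx4 and 0.40 with siBsx on the log2 scale. Nfkbia, the inhibitor of NF-kB, rose by 0.24 and 0.39. Among 19 further tested effectors, the nuclear body protein gene Sp110 rose with siLhx4 by 0.64 (log2; DESeq2 adjusted p = 0.00619 from the authors' deposited table). It stood at 310 normalized counts in siNT, 485 in siLhx4 and 300 in siBsx. The median log2 change of these 19 was 0.30 with siLhx4 and -0.04 with siBsx.

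Antigen presentation was followed in 17 further genes, of which 2 rose and 2 fell with siLhx4 and 1 fell with siBsx, again near the shares over all genes. Psmb10, the remaining catalytic subunit of the immunoproteasome, stood at 218 normalized counts in siNT, 379 in siLhx4 and 248 in siBsx and rose with siLhx4 by 0.80 (log2; DESeq2 adjusted p = 0.000204 from the authors' deposited table). Psme1, a proteasome activator, rose by 0.26 in the same comparison. The chaperone gene Calr fell by 0.15 with siLhx4 in the authors' deposited table, and RT1-T24-1, a class I gene, fell by 0.35 with siLhx4 and 0.41 with siBsx. Of 4 tested chemokine and checkpoint genes only Ccl7 passed, which fell by 0.81 with siLhx4 (adjusted p = 0.0199 from the authors' deposited table). Similar copies among the Oas, Ifit, Mx and RT1 genes can share reads, so their values are uncertain.

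Markers of other cell types moved beside these results. For the counts of calls that follow, 8.07% of all genes tested rose and 9.59% fell with siLhx4. With siBsx the shares were 7.59% and 9.61%. The summed level of 10 fibroblast markers was 3601 normalized counts in siNT, 5026 in siLhx4 and 2942 in siBsx, and 3 of 9 tested rose with siLhx4 and 2 fell with siBsx. The 10 astrocyte markers summed to 13182, 16837 and 10666, with 4 of 8 tested higher with siLhx4 and 4 lower with siBsx. Vim, which many cell types express, held the largest part of that sum, at 4452, 6312 and 4021. The defining astrocyte markers Gfap and Aqp4 stood at 11.7 and 6.23 in siNT, and S100b, Slc1a3 and Gja1 had values below 0 with siLhx4 that did not pass the test. Of the fibroblast markers, Lum stood at 0.151 in siNT, 2.66 in siLhx4 and 0 in siBsx. The 9 endothelial markers summed to 896, 1238 and 921, and 1 of 7 tested rose with siLhx4. The 15 microglia and macrophage markers summed to 634, 641 and 734, and of those tested only Cd68 passed, rising with siBsx. Among these, C1qa, C1qb, C1qc, Cx3cr1 and P2ry12 stood below 10 in every group, whereas Csf1r stood at 225, 176 and 165, Cd68 at 109, 122 and 177 and Ptprc at 52.9, 58.1 and 83.6. Of the 10 pinealocyte markers, 6 fell with siLhx4, and 3 rose and 4 fell with siBsx. Their sums of 554804, 433096 and 522059 are mostly Tph1, at 455480, 348154 and 415142. The part of these cell types in the interferon results was not tested, and in bulk RNA fewer cells of a type and less RNA per cell cannot be told apart.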

How the data were processed

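RNA was sequenced from 9 libraries of pinealocyte cultures, with ribosomal RNA depletion. The submitters' processing notes name the build rn6 with DESeq2 1.16.1, STAR 2.5.4a, bcl2fastq 2.20.0.422 and Subread 1.5.2, with featureCounts. Not given in the sources used here were the annotation, whether strand was counted, and how multi-mapping reads were treated. The signal values that the authors deposited are mean normalized counts. The deposited log2 values are the authors' fold changes over siNT and, for siBsx, their SE. The deposited score is the authors' Wald statistic for siBsx, and the deposited p-values are theirs, unadjusted and Benjamini-Hochberg adjusted. The lowest mean with an adjusted p was 19.8 (siLhx4) or 20.8 (siBsx). Some genes above it had none, such as Ifnk with a mean of 29.5 (siLhx4) and 22.3 (siBsx).

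With python 3.11.15 (numpy 2.4.6, scipy 1.17.1, pandas 2.3.3), siLhx4 SE values were computed by dividing the log2 fold change by the normal quantile that its deposited p gives. Group means followed from each mean and fold change, and the siNT means of both tables had ratios of 0.988 to 1.01. Of the 14 genes with values per library, those listed by name in the deposited tables had computed group means within 0.292% of the measured ones. Size factors recovered from the 14 genes ran from 0.761 to 1.46, at a tolerance of 1e-06 reads, and siBsx libraries were given 1. Dispersions solved from the siBsx SE gave the CV and the rebuilt Wald test. That test was run on data simulated with these same dispersions and siBsx factors. The run therefore checks neither of them, nor whether the Wald statistic of the real data is normal. The planned count test was not run, since the values are the authors' statistics. Fold intervals are 95% normal intervals.

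The members and gene lists were chosen with earlier results of these data known. Full values were given for members past an adjusted p of 0.05 in any comparison, the 6 with the highest mean and the 6 with the widest siLhx4 SE, and all other members were named. Results of some genes outside the group are not reported here. Other thresholds, a mean filter, centring, t distributions and another dispersion were tried as alternatives.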

Additional observations from a re-analysis of the deposited data

How the results depend on the processing

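Of 102 recomputed values of the 23 single-gene calls, 72 passed as before, 30 did not pass and none changed sign. Of the 72, 23 came from the looser adjusted p of 0.1, which every call had to pass, so they test nothing. The sign was not tested either, because every setting except centring reused the same log2 change. Centring moved it only by the median of all genes tested, 0.003 with siLhx4 and 0.0002 with siBsx. At an adjusted p of 0.01, 3 genes were higher with siLhx4 and 1 with siBsx. With a t distribution of 6 degrees of freedom, 1 was higher with siLhx4, 1 with siBsx, and 3 in siLhx4 over siBsx. With 4 degrees of freedom the counts against siNT were 0 higher with siLhx4, and 0 higher and 0 lower with siBsx. Only the reference distribution differs there, as the SE is the same. The mean weighted by 1 over the squared SE was 0.19 with siLhx4 and -0.03 with siBsx. Raising the mean filter to 50, centring on all genes and the siLhx4 table's dispersion left every count of calls within 1.5 times. No paired analysis was possible because values per library of these genes were not used here, and leaving out replicates was not run for the same reason. Library totals of these genes' reads were not used, and computed SE values inherit the rounding of the deposited p.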

Other observations

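Of the 59 other interferon genes with a comparison, 7 also had an implied CV between libraries of at least 2 times that of genes of like mean. Lgals3bp, a secreted glycoprotein gene, stood at 531 normalized counts in siNT, 1036 in siLhx4 and 442 in siBsx, with a CV of 34.5% or 3.83 times that of its like. The helicase gene Ddx60 stood at 251, 562 and 256 with a CV of 43.8%, and the ligase gene Herc6 at 1204, 1522 and 930 with 27.7%. Lgals9, a galectin gene, stood at 58.5, 159 and 68.4, and Oas1i at 199, 296 and 172. Oas1k was also among them. In the rebuilt Wald test Lgals3bp was 1.23 (log2) higher in siLhx4 than in siBsx (adjusted p = 0.0156), with Ifitm3, Igtp and Sp110 the other tested effectors that passed.

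Of the 142 genes with such a CV, 122 were in none of the interferon lists. Among them were 38 structural small RNA names and 50 clone-based or locus names. Genes with symbols, picked here after their values were seen, included Apol9a at 67.9, 112 and 34.2 normalized counts in siNT, siLhx4 and siBsx with a CV of 67.8%. The opioid precursor gene Penk stood at 4638, 7899 and 4449 with a CV of 12.4%, and Hhip at 4981, 3005 and 4781 with 19.2%.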
